A study of Rattus norvegicus with 12 samples.

Results

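The genes described here are 8 markers of pericytes, namely Rgs5, Abcc9, Kcnj8, Cspg4, Mcam, Anpep, Higd1b and Vtn. They were selected by symbol in the gene annotation of the array, and all 8 were found among its 14324 genes. Abcc9 has 2 probe sets, of which the one with the higher mean was used, and each of the others has 1. Expression was measured on Affymetrix whole-transcript arrays in aortic rings of male Fisher 344 rats aged 1 to 2 months. The rings were grown for 2 days in a gel of collagen or of fibrin, always in EBM medium free of serum. Cultures were left untreated or received recombinant rat TNF-alpha (tumour necrosis factor, an inflammatory cytokine) at 10 ng/ml. The 4 groups, with 3 arrays each, are collagen control and collagen TNF, and likewise fibrin control and fibrin TNF. Each array holds the pooled RNA of 4 to 6 rings. A tissue label that names collagen gels for all samples was not used for the fibrin groups, whose titles name fibrin.

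Pericytes are the mural cells that wrap capillaries and small vessels, and they share a lineage and many genes with the smooth muscle of larger vessels. Sprouting endothelium recruits them with PDGF-B, which binds the receptor Pdgfrb, while Notch3 and angiopoietin 1 act in their maturation. In cultured aortic rings, pericyte-like mural cells come to surround the new sprouts. Most of the 8 genes are not restricted to pericytes. In a vessel wall, smooth muscle expresses Rgs5, Abcc9, Kcnj8 and Mcam, and fibroblasts and myeloid cells express Anpep. Cspg4 is expressed in other cells too, glial cells among them. The values are therefore read as expression in whole cultures, in which fewer cells of a type and less RNA per cell cannot be told apart.

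In the main fit, which did not pair arrays by replicate number, Anpep alone among the 8 passed the test, in fibrin with TNF. It was 1.58-fold lower there than in untreated fibrin and 1.67-fold lower than in collagen with TNF. Kcnj8 and Abcc9, the channel pair, and Rgs5 lay higher with TNF in collagen and lower with TNF in fibrin. None of these differences passed in that fit, but Kcnj8 passed for TNF in collagen with the replicate number as a block. Cspg4 had negative TNF differences in both gels and Mcam positive ones, and neither passed. Higd1b and Vtn lay among the third of genes of lowest mean and passed in no comparison. The 8 genes thus did not share 1 pattern over the 4 groups.

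**Figure D1:**
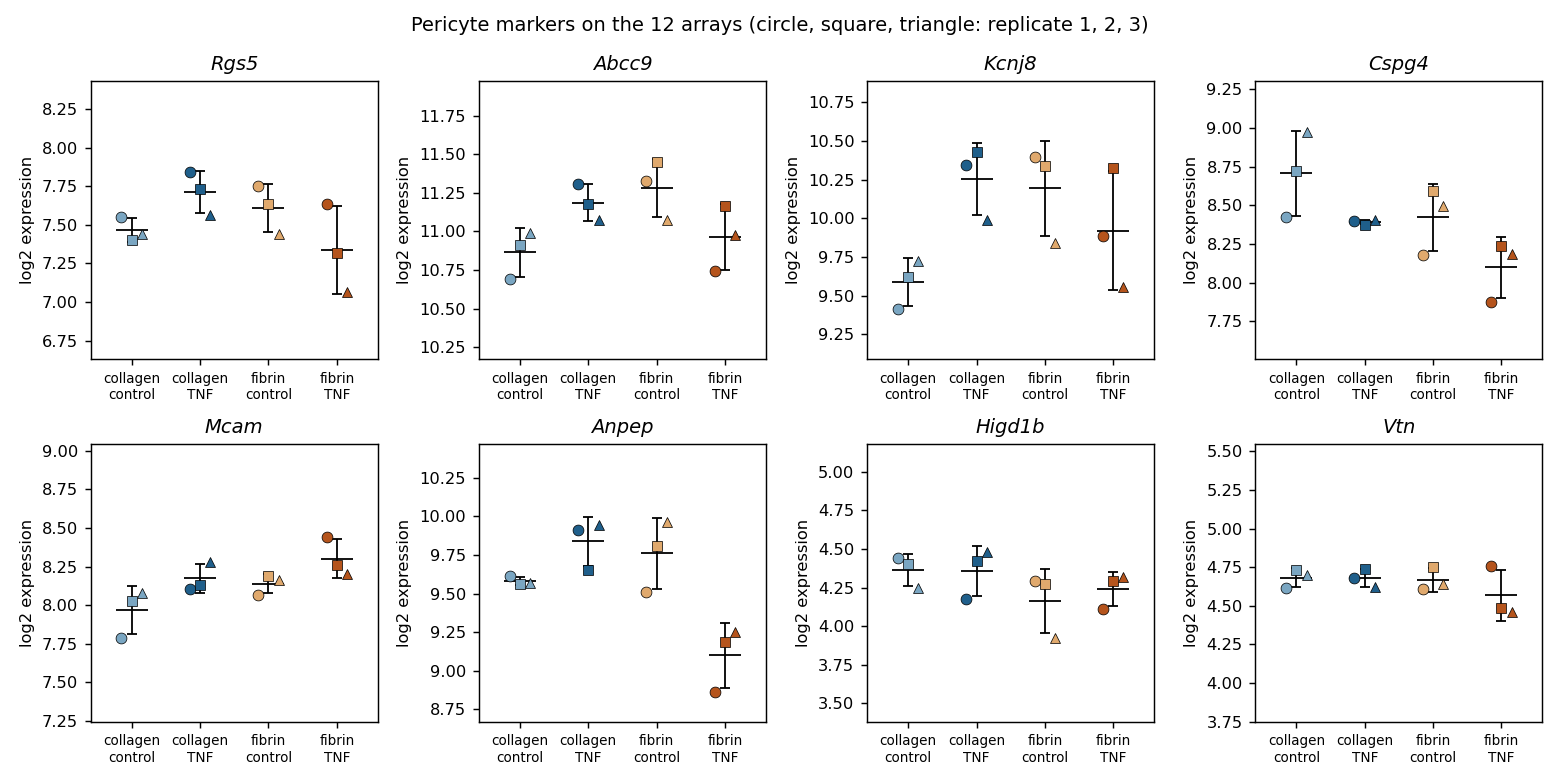
Log2 expression of the 8 genes (vertical axis, a span of 1.8 log2 units in every panel) in the 4 groups, with 1 point per array and the mean and SD (n = 3) as a bar. Anpep on the 3 fibrin TNF arrays, at 8.86 to 9.25, lies below every other array.

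Anpep encodes aminopeptidase N (CD13), a membrane enzyme that trims peptides outside the cell. Its log2 expression was 9.61, 9.56 and 9.57 on the collagen control arrays and 9.91, 9.65 and 9.95 with TNF in collagen. On the fibrin control arrays it was 9.51, 9.81 and 9.96, and with TNF in fibrin 8.86, 9.19 and 9.25. Collagen TNF, fibrin control and collagen control thus follow each other from high to low with overlapping ranges on neighbouring groups, and fibrin TNF lies apart below them.

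In fibrin, TNF lowered Anpep from 9.76 ± 0.23 to 9.10 ± 0.21 (log2, SD, n = 3). The log2 difference was -0.66 ± 0.13 (SE), with adjusted p = 0.0128 in limma's moderated test with Benjamini-Hochberg adjustment over all genes. In this comparison 1.47% of all genes were called lower, and 1 of the 8 members. Arrays of the same replicate number differed by -0.65, -0.62 and -0.71, so the 3 pairs gave nearly equal values. The call was lost without fibrin control replicate 2 (-0.64, adjusted p = 0.0586), fibrin control replicate 3 (-0.56, adjusted p = 0.0633) or fibrin TNF replicate 1 (-0.54, adjusted p = 0.0579), and in a fit of the 2 fibrin groups alone (adjusted p = 0.0607).

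Between the gels with TNF, Anpep was lower in fibrin by a log2 difference of -0.74 ± 0.13 (adjusted p = 0.00275), against 3.64% of all genes called lower. No array of the 2 groups overlapped, and the call held without any 1 of the 6 arrays (adjusted p from 0.00317 to 0.0162). Without TNF the difference between fibrin and collagen was 0.18 ± 0.13, with a 95% interval from -0.10 to 0.45 (adjusted p = 0.439). In collagen TNF gave a difference of 0.26 ± 0.13 (interval -0.02 to 0.53, adjusted p = 0.308).

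The TNF effect on Anpep in fibrin minus that in collagen was -0.92 ± 0.18 (log2, adjusted p = 0.0269), where 0.866% of all genes were called with a lower effect. This call was sensitive to the loss of single arrays from any of the 4 groups. It was lost in 7 of the 12 fits that left out 1 array: collagen control replicate 2 (adjusted p = 0.0697) or 3 (0.0680), collagen TNF replicate 1 (0.0759) or 3 (0.0742), fibrin control replicate 2 (0.0705) or 3 (0.0552), and fibrin TNF replicate 1 (0.0578). The value stayed between -1.04 and -0.80 in the 12 fits.

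Markers of other cells that express Anpep were counted in the same comparisons. With TNF, 8 of 15 measured macrophage and monocyte markers were lower in fibrin than in collagen and 0 higher. Cd163, a scavenger receptor, lay at 5.72 against 8.42 (log2), while Adgre1 lay the other way at 10.37 against 9.87 and was not called. The summed linear level of these 15 genes, given as its log2, was 13.22 to 13.29 on the fibrin TNF arrays and 13.58 to 13.89 on the collagen TNF arrays. Without TNF the same list had 8 lower and 0 higher genes in fibrin (8 and 1 after median centring), where Anpep did not pass. For TNF in fibrin the list had 1 higher and 1 lower gene (0 and 1 with the replicate number as a block), and its log2 sum was 13.09 to 13.35 on the fibrin control arrays. Of 15 fibroblast markers, 5 fell and 0 rose with TNF in fibrin, or 2 fell without fibrin control replicate 2 and 3 without fibrin control replicate 3 or fibrin TNF replicate 3. The log2 sum of the fibroblast list was 15.69 to 15.75 in fibrin control and 15.38 to 15.51 in fibrin TNF. Between the gels with TNF 7 of the 15 fibroblast markers were lower and 0 higher, or 3 lower when collagen TNF replicate 1 was left out and 4 when fibrin TNF replicate 1 was. Of 13 measured neutrophil markers 0 passed with TNF in fibrin in limma, and 1 was higher and 0 lower between the gels with TNF. The part of these cells in the Anpep result was not tested.

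The genes whose profile over the 12 arrays was most like that of Anpep were Pdk1, P4ha2 and Pfkfb3. Likeness was measured as the root mean square distance between profiles centred on their own mean. The distances were 0.128, 0.135 and 0.139 (log2), against 0.321 for the spread of Anpep itself and a median distance of 0.349 over all genes. Pdk1, a kinase that inhibits pyruvate dehydrogenase, had means of 9.08 and 9.37 without and with TNF in collagen, and of 9.19 and 8.64 in fibrin. P4ha2 encodes a subunit of collagen prolyl hydroxylase, and Pfkfb3 an enzyme that makes an activator of glycolysis.

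The promoter of Anpep is shown because this gene carried the called differences. Promoters were taken from RefSeq (build GRCr8) as 300 bases, 250 before and 50 after the annotated start, on the strand of the gene. The table held 6 of the 8 genes, all but Mcam and Higd1b. Capitals mark matches on either strand to the TATA box TATAAA, the GC box GGGCGG, the NF-kB pattern (GGG and CC with any 5 bases between), the ISRE core (GAAA and GAAA with any 2 bases between), the RBPJ pattern TGGGAA or the CArG box. The Anpep promoter lies at chr1:143195052-143195351 on the minus strand.
Anpep: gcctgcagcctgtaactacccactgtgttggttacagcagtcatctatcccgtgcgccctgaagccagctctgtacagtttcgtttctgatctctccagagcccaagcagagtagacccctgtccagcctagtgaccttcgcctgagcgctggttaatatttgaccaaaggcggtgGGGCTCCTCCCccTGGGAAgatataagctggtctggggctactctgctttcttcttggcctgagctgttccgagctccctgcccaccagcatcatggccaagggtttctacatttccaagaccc
The capitals hold 2 overlapping NF-kB matches, 1 on each strand, and 1 RBPJ match. The NF-kB pattern occurs in 47.3% of the 33465 promoters of this length in the table and the RBPJ pattern in 25.7%, and a match is a description of letters only. Anpep, unlike the other 5 members with a promoter in the table, had no GC box match, a pattern in 33.1% of promoters.

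Kcnj8 and Abcc9 encode the pore (Kir6.1) and the regulatory sulfonylurea receptor (SUR2) of the ATP-sensitive potassium channel of vascular muscle and pericytes, which relaxes vessels when it opens. They are neighbours on rat chromosome 4, with 0 genes listed between them. Kcnj8 read 9.42, 9.62 and 9.73 (log2) on the collagen control arrays and 10.34, 10.43 and 9.99 with TNF in collagen. On the fibrin control arrays it read 10.40, 10.34 and 9.84, and with TNF in fibrin 9.89, 10.32 and 9.55. The collagen control arrays lay below every array of collagen TNF and fibrin control, while fibrin TNF overlapped all 3 other groups.

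With TNF in collagen the log2 difference of Kcnj8 was 0.67 ± 0.19 (SE), a 1.59-fold change with a 95% interval from 0.25 to 1.09. It did not pass in the main limma fit (adjusted p = 0.0627). The titles state no pairing. Replicate numbers were taken to pair the arrays within each gel, because same-numbered arrays correlated at 0.13 to 0.25. With the replicate number as a block the same difference passed (adjusted p = 0.0270). The 3 pairs differed by 0.93, 0.81 and 0.27. It also passed when only the collagen arrays were fitted (adjusted p = 0.0235), with array weights (0.0440) and without the third of genes of lowest mean (0.0390), while 6 of 6 fits that left out 1 array did not call it. TNF in fibrin gave -0.27 ± 0.19 (interval -0.69 to 0.15, adjusted p = 0.560), with pairs at -0.51, -0.02 and -0.29.

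Untreated fibrin exceeded untreated collagen for Kcnj8 by 0.61 ± 0.19 (adjusted p = 0.0666). This comparison shares its collagen control arrays with the TNF comparison in collagen. Without fibrin control replicate 3, the lowest of its group, the difference was 0.78 and passed (adjusted p = 0.0251). It passed too after median centring (0.67, adjusted p = 0.0418) and without the third of genes of lowest mean (0.0432). The same held in a fit of the 2 groups alone (0.0475) and with the replicate number as a block (adjusted p = 0.0398), a pairing between gels that is not settled. With TNF in both gels it was -0.33 ± 0.19 (adjusted p = 0.347). The difference of the TNF effect between the gels was -0.94 ± 0.27 (interval -1.53 to -0.35, adjusted p = 0.140), and it passed only without fibrin TNF replicate 2 (-1.14, adjusted p = 0.0411) among the 12 fits that left out 1 array.

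Abcc9 read 10.69, 10.91 and 10.99 (log2) in collagen control, 11.31, 11.18 and 11.07 in collagen TNF, 11.32, 11.45 and 11.08 in fibrin control, and 10.74, 11.17 and 10.98 in fibrin TNF. As with Kcnj8, the collagen control arrays lay below every array of collagen TNF and fibrin control, and fibrin TNF overlapped collagen control. The TNF difference was 0.32 ± 0.13 in collagen (adjusted p = 0.178) and -0.32 ± 0.13 in fibrin (adjusted p = 0.233). Fibrin against collagen was 0.42 ± 0.13 without TNF (adjusted p = 0.0520, interval 0.15 to 0.69) and -0.22 ± 0.13 with it (adjusted p = 0.329). The difference without TNF passed without fibrin control replicate 3 (0.52, adjusted p = 0.0260), after quantile normalization (0.43, adjusted p = 0.0470), after median centring (0.48, adjusted p = 0.0295), without the third of genes of lowest mean (adjusted p = 0.0318) and with the trended and robust prior (0.0307).

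The second probe set of Abcc9, which the rule did not use, gave the same signs. Its TNF difference was 0.25 ± 0.13 in collagen and -0.39 ± 0.13 in fibrin, and the difference of the TNF effect was -0.63 ± 0.18 against -0.64 ± 0.18 for the first probe set. None of these passed with adjustment over all 27342 probe sets (adjusted p = 0.404, 0.207, 0.193 and 0.189).

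The promoters of Kcnj8 and Abcc9 are shown because these neighbouring genes encode the subunits of 1 channel. That of Kcnj8 lies at chr4:177246499-177246798 and that of Abcc9 at chr4:177386299-177386598, both on the minus strand of GRCr8, with capitals as for Anpep.
Kcnj8: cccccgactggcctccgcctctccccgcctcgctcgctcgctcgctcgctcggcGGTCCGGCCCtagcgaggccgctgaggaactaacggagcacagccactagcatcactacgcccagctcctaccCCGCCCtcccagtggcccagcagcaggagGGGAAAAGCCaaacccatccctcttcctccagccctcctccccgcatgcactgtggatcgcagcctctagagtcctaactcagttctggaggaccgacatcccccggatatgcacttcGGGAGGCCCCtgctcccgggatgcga
Abcc9: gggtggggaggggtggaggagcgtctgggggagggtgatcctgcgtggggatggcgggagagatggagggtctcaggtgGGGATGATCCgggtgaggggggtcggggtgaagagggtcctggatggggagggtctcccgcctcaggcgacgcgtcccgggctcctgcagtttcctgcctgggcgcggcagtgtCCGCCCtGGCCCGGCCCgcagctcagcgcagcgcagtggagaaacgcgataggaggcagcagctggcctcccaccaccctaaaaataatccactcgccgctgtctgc
Each held 1 GC box match. The NF-kB pattern matched at 3 places in Kcnj8, 1 of them on both strands, and at 2 places in Abcc9. Bases G and C made up 67.0% of the Kcnj8 and 69.0% of the Abcc9 promoter, against 55.7% for Anpep and a median of 51.7% over all promoters of this length. The TATA box, the ISRE core and the CArG box, a site bound by serum response factor, matched in 0 of the 6 members with a promoter in the table, and occur in 14.2%, 3.9% and 1.6% of promoters. The E-box CANNTG, left in lower case, matched at 2 places in Abcc9 and at 1 place in Vtn, and occurs in 72.1%.

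Other potassium channel genes were taken as a list of 14, of which 12 were measured. With TNF in collagen 0 rose and 1 fell (1 and 2 with the replicate block), and in fibrin 2 rose and 1 fell (2 and 2 with the block). The gene that fell in collagen was Kcnma1, the large-conductance calcium-activated channel (-0.68 ± 0.17, adjusted p = 0.0332), a call lost in 5 of 6 fits that left out 1 array. Kcnn3 and Kcnn4, calcium-activated channels of smaller conductance, rose in fibrin (0.59 ± 0.10, adjusted p = 0.00437, and 0.41 ± 0.08, adjusted p = 0.0158), and Kcnk3, an acid-sensitive background channel, fell (-0.75 ± 0.16, adjusted p = 0.0241). With 1 array left out, Kcnn3 kept its call in 6 of 6 fits, while Kcnn4 lost it in 2 and Kcnk3 in 4. Kcnj11 and Abcc8, which encode the paired subunits of the pancreatic form of the channel, differed by -0.06 (adjusted p = 0.876) and -0.02 (adjusted p = 0.948) with TNF in collagen. Between the gels with TNF 1 of the 12 was higher in fibrin and 2 lower. Kcnn3 was higher (0.58 ± 0.10, adjusted p = 0.00213) and Kcnk3 lower (-0.77 ± 0.16, adjusted p = 0.00931). Abcc8 was lower (-0.34, adjusted p = 0.0457), but it lost the call in 6 of 6 fits without 1 array (adjusted p up to 0.140).

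**Figure D2:**
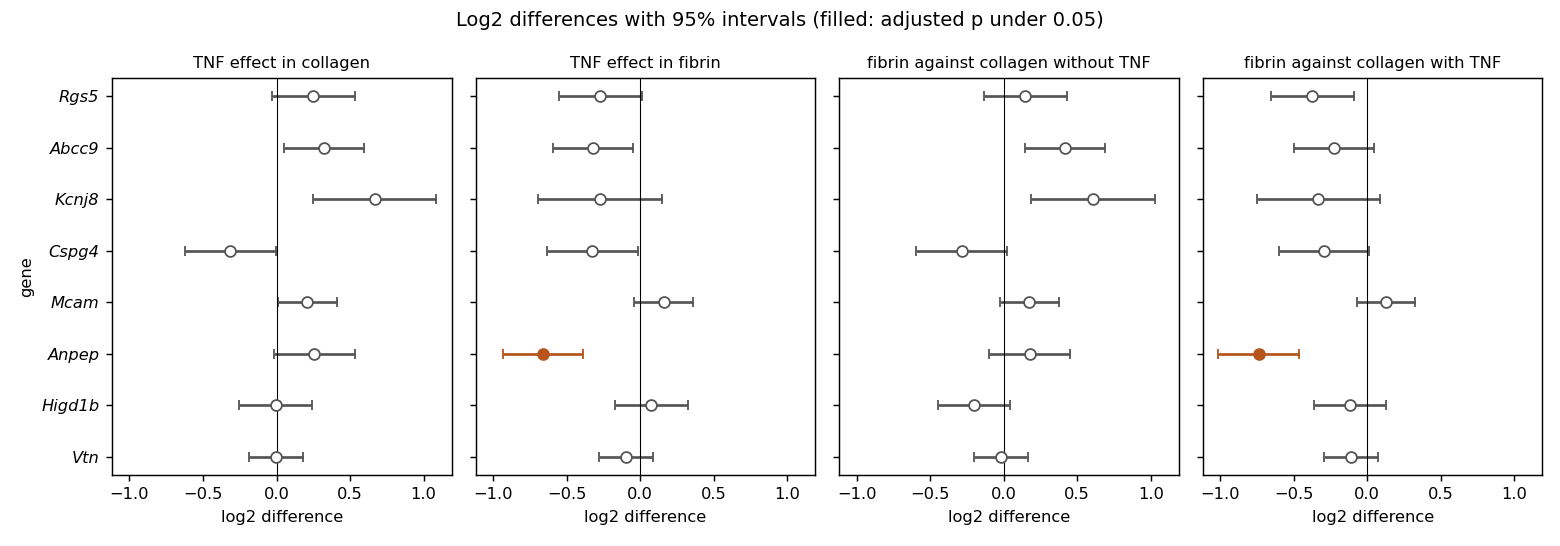
Log2 differences (horizontal axis) of the 8 genes in the 4 comparisons of 2 groups, with 95% intervals from limma. In this fit without the replicate number only Anpep passed, at -0.66 for TNF in fibrin and -0.74 for fibrin against collagen with TNF.

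Rgs5 encodes a regulator of G-protein signalling that shortens the response to contractile ligands, and it is among the most used pericyte markers. It read 7.55, 7.40 and 7.44 (log2) in collagen control, 7.84, 7.73 and 7.57 in collagen TNF, 7.75, 7.64 and 7.44 in fibrin control, and 7.63, 7.32 and 7.06 in fibrin TNF. Collagen TNF lay above collagen control on all arrays, and the fibrin groups overlapped. The TNF difference was 0.25 ± 0.13 in collagen (interval -0.03 to 0.53, adjusted p = 0.341) and -0.27 ± 0.13 in fibrin (interval -0.55 to 0.01, adjusted p = 0.350). With TNF in both gels Rgs5 was lower in fibrin by -0.37 ± 0.13 (adjusted p = 0.107). Without fibrin TNF replicate 1 this was -0.52 and passed (adjusted p = 0.0225). It passed too with the replicate number as a block (adjusted p = 0.0286), a pairing between gels that is not settled.

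Of 15 measured relatives of Rgs5 in the RGS family, 2 rose and 1 fell with TNF in collagen. Rgs2, which limits signalling through Gq, rose by 1.57 ± 0.24 (adjusted p = 0.00159) to 9.57, and Rgs16 by 0.81 ± 0.10 (adjusted p = 2.90e-04). In fibrin Rgs16 rose by 0.62 ± 0.10 (adjusted p = 0.00426), the only one of the 15 called (with the replicate block Rgs18 was called too, at adjusted p = 0.0495), while Rgs2, at 9.79 in fibrin control, differed by -0.26 (adjusted p = 0.678). Rgs18, a family member of blood cells, fell with TNF in collagen (-0.86, adjusted p = 0.0153; up to 0.0725 with 1 array left out, and lost in 4 of 6 such fits).

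**Figure D3:**
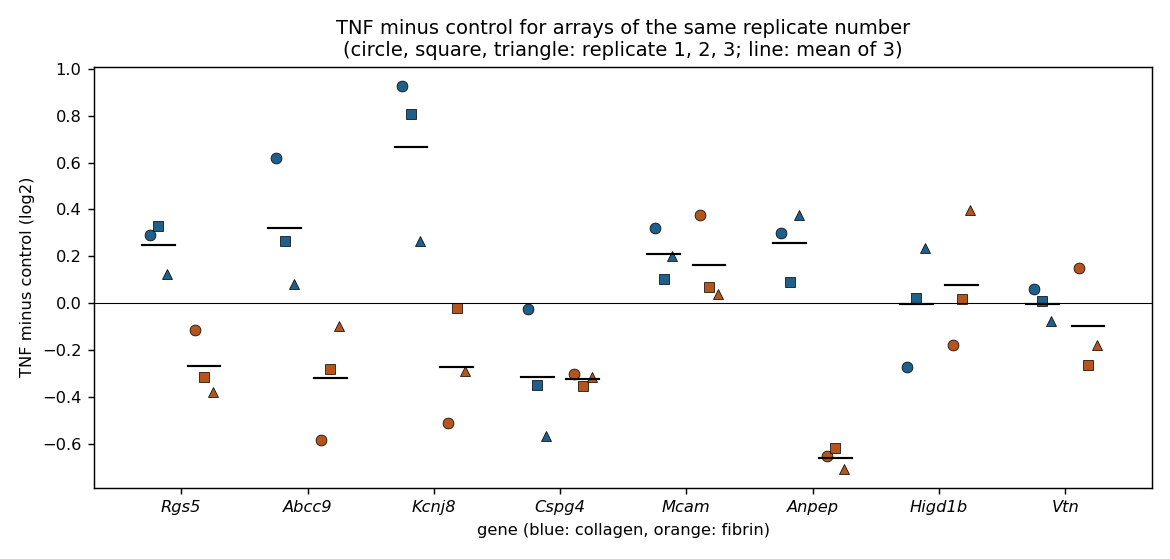
TNF minus control (log2, vertical axis) for arrays of the same replicate number in collagen (blue) and fibrin (orange), for each of the 8 genes. For Rgs5, Abcc9, Kcnj8 and Anpep all 3 pairs lie above 0 in collagen and all 3 below 0 in fibrin.

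Paired by replicate number, 4 of the 8 members, Rgs5, Abcc9, Kcnj8 and Anpep, had a positive difference in 3 of 3 collagen pairs and a negative one in 3 of 3 fibrin pairs. Of all 14324 genes 3.01% had this pattern, which was chosen after the values were seen. The test of the difference of the TNF effect gave -0.52 ± 0.18 for Rgs5 (adjusted p = 0.234) and -0.64 ± 0.18 for Abcc9 (adjusted p = 0.119), beside the values of Kcnj8 and Anpep above. Over the 8 members the median TNF difference was 0.23 in collagen and -0.27 in fibrin, against 0.00 and 0.01 over all genes. Lists of other mural cell, fibroblast, macrophage and contractile smooth muscle genes had medians of -0.13, -0.09, -0.11 and -0.16 in collagen. Some other lists had positive medians there, up to 0.09 for neutrophil genes. In fibrin the lists with the negative medians just given had -0.13, -0.30, -0.21 and -0.18, so a negative median in fibrin was not particular to the members.

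Cspg4 encodes the NG2 proteoglycan of the pericyte surface. Its values were 8.43, 8.72 and 8.97 (log2) in collagen control, 8.40, 8.37 and 8.40 in collagen TNF, 8.18, 8.59 and 8.50 in fibrin control, and 7.87, 8.24 and 8.18 in fibrin TNF. The collagen TNF arrays lay close together and below all collagen controls, whose own range was wide, and fibrin TNF lay below all arrays of both collagen groups. TNF gave -0.31 ± 0.14 in collagen (interval -0.62 to -0.01, adjusted p = 0.258) and -0.32 ± 0.14 in fibrin (interval -0.63 to -0.02, adjusted p = 0.298). The difference between these effects was -0.01 ± 0.20, with an interval from -0.45 to 0.43.

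Mcam, the adhesion molecule CD146 of mural and endothelial cells, read 7.79, 8.03 and 8.08 (log2) in collagen control and 8.11, 8.13 and 8.28 in collagen TNF. In fibrin it read 8.07, 8.19 and 8.16 without TNF and 8.44, 8.26 and 8.20 with it. The TNF arrays lay above the control arrays in each gel, by a log2 difference of 0.21 ± 0.09 in collagen (adjusted p = 0.249) and 0.16 ± 0.09 in fibrin (adjusted p = 0.452). The 95% intervals ran from 0.01 to 0.41 and from -0.04 to 0.36. Cdh5, the endothelial cadherin, differed by 0.30 (adjusted p = 0.119) and 0.09 (adjusted p = 0.741) in these comparisons, and neither passed. Of 14 measured endothelial markers 0 rose and 1 fell in each gel, namely the tight junction gene Cldn5, at -0.62 ± 0.11 in collagen (adjusted p = 0.00580) and -0.48 ± 0.11 in fibrin (adjusted p = 0.0437), the latter lost in 5 of 6 fits that left out 1 array.

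Vtn encodes vitronectin, an adhesive plasma and matrix glycoprotein that brain pericytes make. It lay between 4.46 and 4.76 (log2) on the 12 arrays, with overlapping groups in all 4 comparisons and differences from -0.11 to -0.00. The lowest bound of their 95% intervals was -0.29. Higd1b, a small protein of the mitochondrial HIG1 family with a pericyte-restricted pattern in other organs, lay between 3.92 and 4.48, also with overlapping groups in all 4 comparisons. Its largest difference was -0.20 ± 0.11 between untreated fibrin and collagen (adjusted p = 0.314). The deposited table gives no call of presence for these 2 genes.

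Its widely expressed relative Higd1a, which hypoxia induces, rose with TNF in collagen by 0.60 ± 0.15 (adjusted p = 0.0321), and its TNF effect in fibrin minus that in collagen was -1.08 ± 0.21 (adjusted p = 0.0275). The calls were lost in 4 of 6 and 8 of 12 fits that left out 1 array, with adjusted p up to 0.133 and 0.0780.

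Over the 8 members, 0 passed for TNF in collagen and 0 for fibrin against collagen without TNF in the main limma fit. In these comparisons 6.37% and 10.5% of all genes were called, 3.27% and 5.35% as higher and 3.1% and 5.19% as lower. For TNF in fibrin, fibrin against collagen with TNF and the difference of TNF effects, 1 of 8 was called each time, against 3.13%, 8.19% and 1.24% of all genes. In the same order, 1.65%, 4.55% and 0.37% of all genes were called higher. At an unadjusted p under 0.05 there were 4 members for TNF in collagen and 3 in fibrin, beside 18.6% and 15.3% of all genes. Fibrin against collagen gave 2 members without TNF and 2 with it, beside 23.8% and 22.1%, and the difference of TNF effects gave 4, beside 13.1%. The arrays of the groups did not overlap for 6 members with TNF in collagen and for 2 in each of the other 3 comparisons of 2 groups, beside 26.5% of all genes in the former and 18.1%, 29.3% and 27.6% in the latter.

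Other markers of mural cells were examined as a list of 21 genes, of which 17 were measured. With TNF in collagen 1 rose and 4 fell, or 2 and 5 with the replicate number as a block. Steap4, a metalloreductase found in pericytes and fat cells, rose by 1.08 ± 0.18 (adjusted p = 0.00300), from 8.02 to 9.10. Gucy1a1, a subunit of the nitric oxide receptor, fell (-1.11 ± 0.15, adjusted p = 5.19e-04), Cd248 (endosialin) fell (-0.80 ± 0.12, adjusted p = 0.00110), and so did the intermediate filament gene Des (-0.57 ± 0.12, adjusted p = 0.0139) and Pdgfrb (-0.46 ± 0.11, adjusted p = 0.0206). The count of genes that fell was 2 without collagen TNF replicate 1. Des lost its call in 2 and Pdgfrb in 3 of the 6 fits that left out 1 array, and Gucy1a1, Cd248 and Steap4 in 0.

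In fibrin 0 of the 17 rose and 4 fell with TNF, namely Steap4 (-1.03 ± 0.18, adjusted p = 0.00760), Notch3 (-0.58 ± 0.11, adjusted p = 0.0152), the transcription factor gene Tbx18 (-0.50 ± 0.10, adjusted p = 0.0179) and Cd248 (-0.51 ± 0.12, adjusted p = 0.0330). Cd248 did not pass with the replicate number as a block (adjusted p = 0.0541), while Gucy1a1 (-0.57, adjusted p = 0.0588) and Cox4i2, a cytochrome c oxidase subunit of mural cells (-0.70, adjusted p = 0.0875), did (adjusted p = 0.0296 and 0.0140), which gave 5 lower genes. Notch3, Tbx18 and Cd248 each lost the call in 4 of the 6 fits that left out 1 array. The count was 1 without fibrin control replicate 2, fibrin TNF replicate 1 or fibrin TNF replicate 3, and 2 without fibrin control replicate 3. Steap4 was called in each gel in every fit that left out 1 array. Its means were 8.02 and 9.10 without and with TNF in collagen, and 9.51 and 8.48 in fibrin. Its difference of TNF effects was -2.11 ± 0.26 (adjusted p = 0.00206), the only one of the 17 called. With the replicate block 1 more gene passed in each direction.

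**Figure D4:**
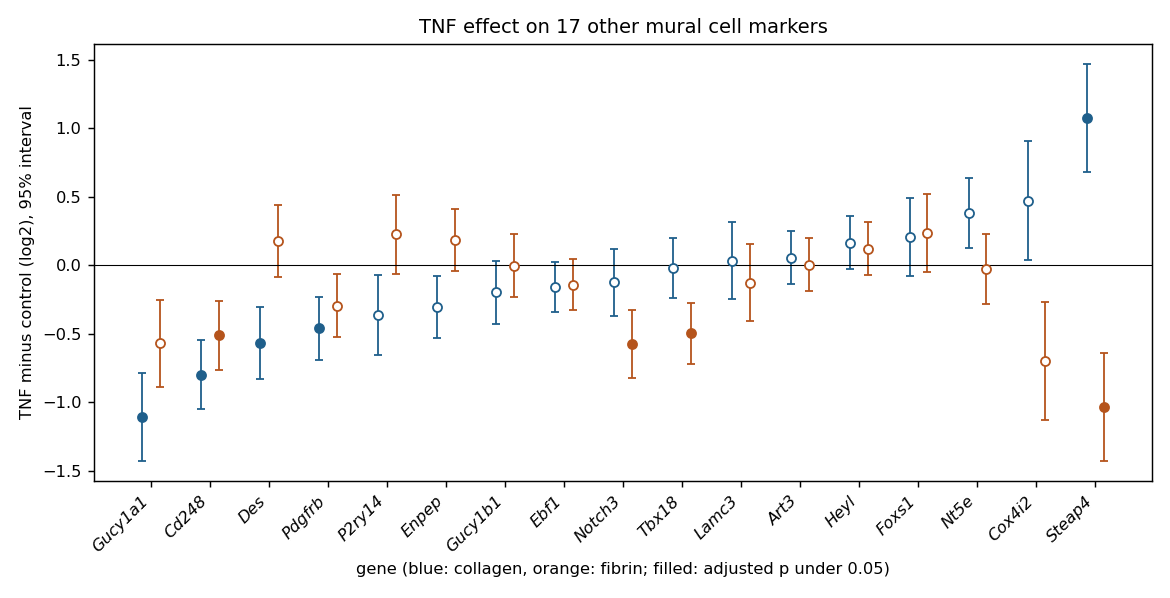
TNF minus control (log2, vertical axis, 95% intervals from limma) for the 17 other mural cell markers in collagen and fibrin. Steap4 lies at 1.08 in collagen and -1.03 in fibrin, whereas Cd248 is below 0 in both.

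Contractile genes of smooth muscle, the main mural cell of the aorta, were lower with TNF in collagen for 7 of 17 measured genes and higher for 0. In order of adjusted p these were Cald1, Lmod1, Mustn1, Tagln, Casq2, Des and Myl9. Cald1 (caldesmon) fell by 0.37 (log2, adjusted p = 0.00184), Lmod1 (leiomodin) by 0.60 and Tagln (transgelin) by 0.83, and Myh11, the smooth muscle myosin heavy chain, differed by -0.43 (adjusted p = 0.0624, or 0.0187 with the replicate block). In fibrin 0 of the 17 passed with TNF in the main fit. Without TNF, however, 8 of the 17 were lower in fibrin than in collagen and 0 higher (6 and 1 after median centring), with Tagln at 8.13 against 8.94. The difference of the TNF effect between the gels was called for 1 of the 17, Cald1 (0.50 ± 0.08, adjusted p = 0.0102 in limma). Myh11 lay at 10.79 and Tagln at 8.94 (log2) in collagen control, so defining smooth muscle markers were measured in the cultures. With TNF in collagen Kcnj8, Abcc9 and Rgs5 had positive differences that did not pass in the main fit. In the contractile list the largest positive difference was that of Pln (0.43, adjusted p = 0.382), which was not the only positive one and did not pass. Whether the pericyte markers follow the smooth muscle genes was not tested.

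Signals that recruit and mature mural cells were examined as a list of 36 genes, 28 of them measured. With TNF in collagen 4 rose and 1 fell, or 5 and 1 with the replicate number as a block. Angpt1, the ligand by which mural cells act on the endothelial receptor Tie2, rose by 2.30 ± 0.12 (adjusted p = 2.44e-07), and Pdgfb, the recruiting ligand, differed by 0.34 ± 0.10 (adjusted p = 0.0650). With TNF in both gels, 7 of the 28 were lower in fibrin and 0 higher, including Dll4, a Notch ligand of sprout tip cells (-0.74 ± 0.10, adjusted p = 6.16e-04), and Notch3 (-0.54 ± 0.11, adjusted p = 0.0100). After median centring 7 were lower and 2 higher, and after quantile normalization 6 and 0. Leaving out collagen TNF replicate 1, 2 or 3 gave counts of lower genes of 3, 4 and 2, and leaving out fibrin TNF replicate 1 gave 2. Pdgfb differed by -0.17 there (adjusted p = 0.330).

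Of 10 measured ectopeptidases other than Anpep, 1 rose and 2 fell with TNF in collagen (0 and 2 with the replicate block). With TNF in fibrin 0 passed in the main fit (1 fell with the block). Enpep, aminopeptidase A, a relative of Anpep and also a pericyte marker, differed by 0.18 ± 0.10 with TNF in fibrin (adjusted p = 0.451) and by 0.17 ± 0.10 between the gels with TNF (adjusted p = 0.389). Between the gels with TNF 1 of the 10 was higher in fibrin and 2 were lower. Erap1, an aminopeptidase that trims antigen peptides, was higher (0.41 ± 0.08, adjusted p = 0.00649). Fap, a protease of activated fibroblasts, was lower (-1.11 ± 0.18, adjusted p = 0.00198), and so was Ace, the angiotensin-converting enzyme (-0.40 ± 0.11, adjusted p = 0.0393), a call lost in 5 of 6 fits that left out 1 array.

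Binding partners of Vtn, Mcam and Cspg4 were measured for 7 of 15 genes listed. Lgals3 (galectin 3), which binds the NG2 proteoglycan, fell with TNF in fibrin (-0.62 ± 0.11, adjusted p = 0.00813) and was lower in fibrin than in collagen both without TNF (-0.76 ± 0.11, adjusted p = 5.95e-04) and with it (-1.02 ± 0.11, adjusted p = 7.71e-05). Macrophages express Lgals3 too. Of the 15 measured macrophage markers 8 were lower in fibrin and 0 higher in each of the latter comparisons, while 1 rose and 1 fell with TNF in fibrin. The part of macrophages in the Lgals3 result was not tested.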

How the data were processed

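Total RNA, 200 ng per sample, was labelled for the arrays, per the labels' protocols. The deposited values are log2 expression levels; the scale was read from their range of 1.44 to 14.07. Summarisation, background correction and normalization are not given in the sources used here; limma is named per the submitters' processing notes. Column medians lay between 5.94 and 5.98 on the collagen arrays and between 5.89 and 5.93 on the fibrin arrays, so the gels did not overlap. Median centring moved the median fibrin minus collagen difference over all genes, without TNF, from -0.01 to 0.05. Calls between the gels thus depend in part on the scaling. The table holds 27342 probe sets, of which the annotation names 1 gene for 15097, several for 323 and none here for 11922.

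Groups and replicate numbers came from the titles. The titles call replicates biological without saying whether they were separate animals; p-values then cover only the spread between samples, which may be technical. Group means over the 12 arrays and their differences were estimated in R 4.3.3 using limma 3.58.1 (lmFit, eBayes, two-sided, Benjamini-Hochberg over 14324 genes, threshold 0.05), and tested on simulated data. Intervals are at 95%. Precision is limited by the number of arrays, with a median SE of 0.09 for a 2-group difference. Scan dates are not given in the labels, so no batch was tested.

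Deviations of same-numbered arrays from their group means correlated across genes at 0.13, 0.14 and 0.14 in collagen and 0.25, 0.14 and 0.16 in fibrin. Numbers were thus taken to pair arrays within a gel, a pairing used in the replicate block and not in the main fit. The members and the 15 lists (225 genes, 185 measured) were chosen with earlier results of these data known. Genes open to be named, not all of which are, were the members, per list and comparison up to 6 called genes (lowest adjusted p first) and 3 uncalled ones of largest difference, Pdgfb, Pdgfrb, Notch3, Acta2, Myh11, Tagln, Pecam1, Cdh5, Des, Kcnj11, Abcc8 and Enpep in any case, and the 3 genes of nearest profile for each called member. Acta2 and Pecam1 were not analysed here. Alternatives were other scalings, a filter on dim genes, other priors, weights and probe sets, the replicate block and leaving out arrays.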

Additional observations from a re-analysis of the deposited data

Results flagged for a closer look

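The TNF effect on Anpep differed between the 2 gels by a test of the difference itself. It was -0.92 ± 0.18 (log2, fibrin minus collagen, adjusted p = 0.0269 in limma), with a TNF effect of 0.26 in collagen and -0.66 in fibrin, and it lost its call in 7 of 12 fits that left out 1 array.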

How the results depend on the processing

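Over the 40 member results, 602 of 630 values under the alternatives kept the direction of any call and the side of the threshold, 11 lost the call, 17 gained it and 0 reversed; the cause was not tested. The number of members called for TNF in collagen was 1 instead of 0 (Kcnj8) without the dimmest genes (those in the third of lowest mean), with only the groups compared, with array weights and with the replicate block. For TNF in fibrin it was 0 instead of 1 with only the groups compared, and 0 to 1 with arrays left out. For fibrin against collagen without TNF it was 1 after quantile normalization, with only the groups compared, with the trended and robust prior and with the replicate block, 2 after median centring and without the dimmest genes, and 0 to 2 with arrays left out. With TNF it was 2 with the replicate block, and 1 to 2 with arrays left out. For the difference of TNF effects it was 0 to 2 with arrays left out.

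All genes called for TNF in collagen numbered 912, and 568 to 769 with arrays left out. For TNF in fibrin they numbered 448, but 230 with only the groups compared, 296 with adjustment over all probe sets and 237 to 539 with arrays left out. Fibrin against collagen gave 1510 without TNF (1071 to 1298 with arrays left out) and 1173 with TNF (727 to 1196). The difference of TNF effects gave 177, but 294 without the dimmest genes, 339 with the trended and robust prior and 103 to 246 with arrays left out.

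Between gels the same-numbered arrays correlated at 0.23, 0.08 and 0.13 without TNF and 0.05, 0.03 and 0.14 with it. Without TNF these values overlap those within a gel, while with TNF 0.05 and 0.03 lie below all of those. Whether the numbers pair arrays between gels is thus not settled, with or without TNF. With the replicate number as a block, Kcnj8 passed without TNF (adjusted p = 0.0398) and Rgs5 with it (adjusted p = 0.0286), and within a gel the block changed no other call of a member than that of Kcnj8 in collagen.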
